A study of Homo sapiens with 4 samples.

Results

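This account concerns the long noncoding RNA genes of the table that carry a LINC or SNHG number, together with MALAT1, NEAT1, GAS5, DANCR and MIR22HG. They were found by gene symbol alone, with no use of measured values, and number 174 of the 15279 rows with a gene name. LINC symbols (150 rows) are given to intergenic long noncoding RNA genes, and SNHG symbols (19 rows) to small nucleolar RNA host genes. GAS5 and DANCR are snoRNA hosts under names of their own, MIR22HG is the host of a microRNA, and MALAT1 and NEAT1 are RNAs of nuclear bodies. By GENCODE v29, 127 of the 174 are typed as lincRNA, 22 as processed transcripts and 8 as antisense genes and 7 as transcribed unprocessed pseudogenes, and 4 symbols had no match there.

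The expression of these genes was measured by RNA-seq in MDAMB231, a triple-negative human breast cancer line (the parental line), and in MDAMB231Br, its derivative labelled as brain metastatic breast cancer cells. Cells of both lines grew in culture in DMEM with 10% FBS, and no other treatment is given. Each line has 2 libraries, lettered A and B after the column order of the deposited table, and the design text names the comparison of the lines as the study's purpose. Whether the 2 libraries stem from different cultures is not stated in the labels. The p-values therefore measure only how far these libraries spread, which can be technical. Each line is a single cell line grown outside the brain, and nothing in the labels gives passage or clone.

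Long noncoding RNAs are long transcripts with no known protein product when named, though some LINC genes have later been found to encode microproteins. A snoRNA host gene carries small nucleolar RNAs in its introns. The snoRNAs are released when the intron is removed and guide chemical modification of ribosomal RNA, while the spliced host transcript often has no protein of its own and is degraded by nonsense-mediated decay during translation. Many hosts begin at a run of pyrimidines, as ribosomal protein genes do, which ties the translation of the transcript to growth signals. MALAT1 is retained in nuclear speckles, which store splicing factors, and NEAT1 is the scaffold on which paraspeckles assemble. The MIR22HG transcript contains the hairpin of miR-22.

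Sequences from RefSeq (build GRCh38.p14) are given for the genes on which the results turn; 112 of the 174 members had a promoter entry. MIR22HG is represented by the mature microRNAs of its hairpin, since the RNA-seq read only the host transcript. Capitals mark the seed (bases 2 to 8). The arms lie at chr17:1713914-1713935 and chr17:1713952-1713973, both on the minus strand, and their seeds differ.
hsa-miR-22-3p: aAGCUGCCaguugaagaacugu
hsa-miR-22-5p: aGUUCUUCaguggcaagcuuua

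For the snoRNA hosts, the bases around the transcription start bear on the kind of start described above. Each window below holds 20 bases before the start and 20 from it, with any pyrimidine run that begins at the start itself in capitals. SNHG5 (chr6:85678714-85678753, minus strand) is the most abundant host per length in both lines, SNHG12 (chr1:28581854-28581893, minus strand) has a long run, and GAS5 (chr1:173869026-173869065, minus strand) has none at this RefSeq start. SNHG10 (chr14:95534853-95534892, minus strand) and SNHG14 (chr15:24823588-24823627, plus strand) are the hosts that passed the test between the lines.
SNHG5: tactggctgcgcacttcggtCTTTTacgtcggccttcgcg
SNHG12: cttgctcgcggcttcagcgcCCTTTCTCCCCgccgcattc
GAS5: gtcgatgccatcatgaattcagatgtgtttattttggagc
SNHG10: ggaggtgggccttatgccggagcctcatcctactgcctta
SNHG14: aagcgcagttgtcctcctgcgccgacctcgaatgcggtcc
A start at C followed by a run of at least 5 pyrimidines in all was found in 4 of the 17 hosts with an entry (23.5%), against 4.07% of all 35116 RefSeq promoter entries. The 4 are SNHG4, SNHG5, SNHG12 and SNHG19. Neither SNHG10 nor SNHG14 has such a start in this window. The log2 differences between lines of the 4 ran from -1.35 to 0.58 and those of the other 13 from -1.50 to 4.01, so the ranges overlapped.

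Promoter windows of 250 bases before to 50 bases after the start are shown for MALAT1, for LINC00705 and LINC01322, which had the largest increases among called LINC genes with a TATAAA in the window, and for LINC00664, which had the largest decrease. TATAAA on either strand is in capitals (on the minus strand it reads TTTATA).
MALAT1, chr11:65498795-65499094, plus strand: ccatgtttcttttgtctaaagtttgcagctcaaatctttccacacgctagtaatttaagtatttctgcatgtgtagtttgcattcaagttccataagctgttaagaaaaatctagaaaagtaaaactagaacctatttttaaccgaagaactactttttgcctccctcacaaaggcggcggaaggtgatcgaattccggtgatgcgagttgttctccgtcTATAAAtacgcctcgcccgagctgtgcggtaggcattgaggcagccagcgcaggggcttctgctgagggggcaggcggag
LINC00705, chr10:4655906-4656205, plus strand: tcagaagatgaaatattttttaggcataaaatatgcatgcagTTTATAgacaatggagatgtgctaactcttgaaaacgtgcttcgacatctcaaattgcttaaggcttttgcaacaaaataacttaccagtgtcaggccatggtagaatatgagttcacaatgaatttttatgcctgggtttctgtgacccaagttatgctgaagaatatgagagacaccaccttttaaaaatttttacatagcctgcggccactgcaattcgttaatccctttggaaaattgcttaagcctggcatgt
LINC01322, chr3:165206698-165206997, plus strand: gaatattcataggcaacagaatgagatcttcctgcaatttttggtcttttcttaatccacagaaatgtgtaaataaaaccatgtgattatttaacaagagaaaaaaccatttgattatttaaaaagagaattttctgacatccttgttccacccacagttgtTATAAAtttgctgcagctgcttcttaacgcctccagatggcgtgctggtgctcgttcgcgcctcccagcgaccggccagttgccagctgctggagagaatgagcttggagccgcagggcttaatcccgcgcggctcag
LINC00664, chr19:21483465-21483764, plus strand: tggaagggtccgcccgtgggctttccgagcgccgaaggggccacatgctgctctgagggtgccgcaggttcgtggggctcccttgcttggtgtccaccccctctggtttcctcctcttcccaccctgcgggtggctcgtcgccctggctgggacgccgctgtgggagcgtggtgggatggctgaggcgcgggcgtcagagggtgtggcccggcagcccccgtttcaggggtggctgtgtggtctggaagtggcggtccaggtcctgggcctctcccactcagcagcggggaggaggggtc
The MALAT1 match begins 30 bases before one of its RefSeq starts, those of LINC01322 and LINC00705 begin 88 and 208 bases before the start, and LINC00664 has none. TATAAA was found in 6 of the 18 entries of members that passed the test (33.3%) and in 24 of the 133 entries of all members (18.0%), against 11.5% of all RefSeq entries. TGANTCA and CACGTG, searched on both strands, were in none of those 18 entries and in 7.71% and 7.26% of all entries. A match is a run of letters and no evidence of use.

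Reads in named genes numbered 25835225 to 30771290 per library, and a single read corresponds to 0.0325 to 0.0387 CPM, the read count scaled to a common library total. The identity of the lines was checked on marker genes. VIM, CD44, TGFBI, CAV1 and AXL were abundant in all 4 libraries, though not at a stable level. VIM rose in the brain metastatic line (log2 difference 1.56, adjusted p = 0.00473). TGFBI (-1.63, adjusted p = 0.00352) and CAV1 (-1.43, adjusted p = 0.00523) fell, and CD44 and AXL did not pass. Of the luminal or epithelial markers ESR1 and CDH1 reached at most 26.5 and 14.8 units. The other luminal or epithelial markers with a row were expressed in both lines: KRT8 at 2438 to 3504 units, KRT18 at 1670 to 2368, ERBB2 at 955 to 1239, EPCAM at 91.2 to 398 and GATA3 at 227 to 301 units. Of the markers of other cells, the neuronal genes MAP2 and SYT1 and the endothelial genes PECAM1 and CDH5 had rows, with summed levels of 2.66 to 10.9 CPM and 2.73 to 7.97 CPM per library; CDH5 was listed at 0 in brain metastatic library B, and MAP2 rose (log2 difference 2.14, adjusted p = 0.0101). Astrocyte, microglial, fibroblast and leukocyte markers were not analysed here.

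Of the 174 members, 142 met the read filter and were tested, and 32, all LINC genes, did not meet it. In the brain metastatic line 19 members rose and 6 fell at an adjusted p below 0.05, and 117 did not pass. This test (limma-trend on log2 of the deposited signal + 1, Benjamini-Hochberg over 14424 genes) called 14.4% of all genes, 8.61% higher and 5.8% lower. The members' shares were 17.6% called, 13.4% higher and 4.23% lower, which is near that background. Their median log2 difference, brain metastatic minus parental, was -0.03, beside 0.01 over all tested genes, with 68 positive and 74 negative. The median size of the difference regardless of sign was 0.73, beside 0.47 over all tested genes. Both libraries of a line lay on the same side of both of the other line for 91 members (64.1%), beside 61.3% of all genes. Of these, 47 lay higher and 44 lower in the brain metastatic line, beside 31.7% and 29.7% of all genes. On the recovered reads edgeR called 29 members, beside 15.4% of all genes, and DESeq2 31, beside 20.2%. Among LINC genes 16 rose, 5 fell and 97 did not pass, and among the 21 snoRNA hosts 1 rose, 1 fell and 19 did not pass. Of the 25 calls, 7 held when parental A was left out and 9 when parental B was left out, and all 25 held without either brain metastatic library. Calls over all tested genes moved likewise, from 2079 to 421 and 429 without parental A and B and to 5257 and 3147 without brain metastatic A and B. The 7 that held in every such fit were LINC00705, LINC00707, LINC01293, LINC01446, LINC01998, LINC02303 and SNHG14. Of these, LINC00705, LINC01446, LINC01998, LINC02303 and SNHG14 met the read filter only through the brain metastatic libraries, where they are high. LINC00664, which fell, met it only through the parental libraries. Being tested thus already depended on the higher line, and holding in these fits is no separate support for such genes.

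**Figure D1:**
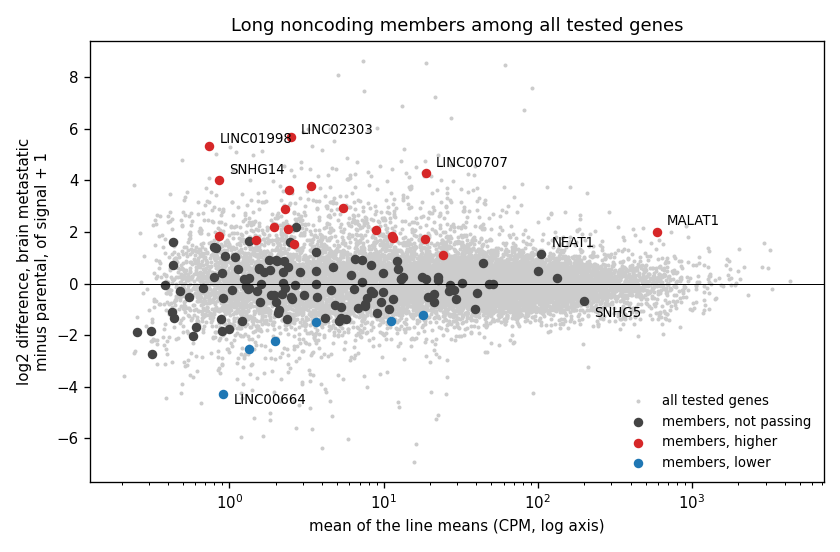
Log2 difference of the lines (brain metastatic minus parental, signal + 1) against mean level in CPM on a log axis, for all 14424 tested genes (grey) and the 142 tested members (larger points, coloured by the test). The members spread on both sides of zero at all levels, with LINC02303 at the top (5.67), LINC00664 at the bottom (-4.27) and MALAT1 as the most abundant member.

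MALAT1 rose in the brain metastatic line, where it was the member with the most reads. Its normalized signal, the read count divided by the library's size factor, was 6588 and 5207 units in parental A and B and 14306 and 38186 units in brain metastatic A and B. The groups did not overlap, and the higher brain metastatic library was well above the other one. The log2 difference was 2.00 ± 0.418 (SE) (adjusted p = 0.0191). The adjusted p was 0.0720 without parental A and 0.124 without parental B, and the log2 difference was 1.29 without brain metastatic B and 2.70 without brain metastatic A. Per kilobase of the longest annotated transcript, MALAT1 went from 25.6 to 111 RPKM and from rank 7 to rank 2 among the 24 members other than LINC genes.

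NEAT1 did not pass the test. It measured 1398 and 1319 units in the parental libraries and 1237 and 7478 units in the brain metastatic libraries, so that a single library stood apart and the groups overlapped. The log2 difference was 1.16 ± 0.679 (SE) (adjusted p = 0.276), and without brain metastatic B it was -0.13, but 2.46 without brain metastatic A. The counts are per gene, so the short and long forms of NEAT1 cannot be told apart. The same brain metastatic library B differed in other gene lists. The summed level of 25 interferon-stimulated genes was 801, 836 and 819 CPM in the first 3 libraries and 3830 CPM in brain metastatic B. That of 17 genes of the unfolded protein and integrated stress responses was 4959, 4736, 5837 and 17465 CPM in the same order. Most of the sum in brain metastatic B came from HSP90B1 (7185 CPM), HSPA5 (5171), CALR (3074) and PDIA4 (1186). ATF4, ASNS, TRIB3 and DDIT4 were lower in brain metastatic B than in brain metastatic A, and the other listed genes were higher. ATF4 measured 235 CPM in brain metastatic A and 158 CPM in B. Of the interferon-stimulated genes 4 of 23 tested rose and none fell (median log2 difference 1.45), and of the stress response genes 2 of 17 rose and none fell (0.65), beside 8.61% higher and 5.8% lower of all tested genes. OAS3, IFITM1, CHAC1 and VLDLR, which are among these calls, did not pass without parental A or without parental B (adjusted p 0.0653 to 0.229). Their part in the NEAT1 and MALAT1 values was not tested.

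Genes for proteins of these bodies were read as RNA only, and protein levels were not measured. Of 22 paraspeckle proteins tested, 2 rose, 2 fell and 18 did not pass (14.4% of all genes were called), with a median log2 difference of 0.29 (all tested genes 0.01). NONO, a core paraspeckle protein, rose by 0.97 and SMARCA4, a chromatin remodelling ATPase, by 1.02 on the log2 scale. NUDT21, a cleavage factor subunit, fell by 1.23 and RBM3, a cold-inducible RNA-binding protein, fell by 1.11. Of 27 nuclear speckle proteins tested, SRSF11, a splicing factor, rose by 1.14 and the other 26 did not pass (median 0.25). None of these 5 calls held when parental A was left out or when parental B was left out (adjusted p 0.0769 to 0.380).

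MIR22HG rose. Its signal was 205 and 210 units in the parental libraries and 404 and 1187 units in the brain metastatic libraries, without overlap but with the 2 brain metastatic libraries far apart. The log2 difference was 1.74 ± 0.461 (SE) (adjusted p = 0.0421). It was 0.96 without brain metastatic B and 2.51 without brain metastatic A, and the adjusted p was 0.159 without parental A and 0.20 without parental B. The interferon and stress response sums given above were also highest in brain metastatic B, and their part was not tested. MIR22HG overlaps WDR81, which measured 99.0 and 70.8 units in the parental and 78.7 and 181 units in the brain metastatic libraries. WDR81 did not pass (log2 difference 0.51, adjusted p = 0.473), and reads of the overlap cannot be told apart. The read table says nothing of the mature miR-22 forms. LINC00472, which hosts microRNAs of the miR-30 family, did not pass, at 404, 301, 84.5 and 363 units (log2 difference -0.99, adjusted p = 0.291).

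The snoRNA hosts were more abundant per length than the LINC genes, with a median of 7.36 RPKM in the parental and 6.40 RPKM in the brain metastatic line over 21 genes, beside 0.946 and 1.14 RPKM over 115 tested LINC genes with an annotated length. As a class they showed no common direction: 9 differences were positive and 12 negative, with a median of -0.03. Only 7 of the 21 (33.3%) had libraries of the lines that did not overlap, beside 61.3% of all tested genes.

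SNHG14 was the host that rose, from a very low level. This gene, on chromosome 15, hosts large clusters of snoRNAs (83 snoRNA genes lie inside it in GENCODE v29) and its far end runs antisense to UBE3A. It measured 1.71 and 1.94 units in the parental and 41.3 and 47.7 units in the brain metastatic libraries, which were close within each line. These are 4 against 88 reads, a ratio of 23.8 (exact 95% interval 8.97 to 89.2, counting error only). The fitted log2 difference was 4.01 ± 0.566 (SE) (adjusted p = 0.00404). SNRPN, which shares its upstream region, had 1 against 31 reads and was not tested, while UBE3A did not pass (log2 difference 0.21, adjusted p = 0.530). Even in the brain metastatic line SNHG14 was the host with the lowest level per length, at 0.125 RPKM.

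SNHG10 was the host that fell. It measured 142 and 146 units in the parental and 55.7 and 45.6 units in the brain metastatic libraries, and the groups were well separated. The log2 difference was -1.50 ± 0.342 (SE) (adjusted p = 0.0259), with an adjusted p of 0.20 without parental A and 0.287 without parental B. SNHG10 overlaps GLRX5, a mitochondrial iron-sulfur cluster protein, and the strand setting of the counting is not given in the sources used here, so reads of the overlap could belong to either. GLRX5 itself had a log2 difference of -0.67 and did not pass (adjusted p = 0.147).

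The abundant hosts did not pass, and their libraries differed within a line. SNHG5, which hosts box C/D snoRNAs, measured 4193 and 8915 units in the parental and 5361 and 2761 units in the brain metastatic libraries (log2 difference -0.67 ± 0.416 (SE), adjusted p = 0.306). Parental B held the highest and brain metastatic B the lowest value. SNHG6 had the same order of libraries, at 885, 1915, 963 and 440 units (-0.999 ± 0.455 SE, adjusted p = 0.174). GAS5, which accumulates in growth-arrested cells, measured 2293 units in parental A and 3718 to 4579 units in the other 3 libraries (log2 difference 0.20 ± 0.325 (SE), adjusted p = 0.704). The groups overlapped for all of these.

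SNHG1, which hosts several box C/D snoRNAs (7 snoRNA genes lie inside it in GENCODE v29), measured 2133, 2221 and 2174 units in the first 3 libraries and 4318 units in brain metastatic B (log2 difference 0.49 ± 0.325 (SE), adjusted p = 0.333). SNHG12 showed the same picture at 255, 253, 254 and 571 units (0.58 ± 0.390 (SE), adjusted p = 0.338). In both, 1 brain metastatic library was high and the other lay at the parental level. SNHG4, which shares its locus with MATR3, gave 130, 147, 109 and 280 units (0.34 ± 0.448 (SE), adjusted p = 0.639). SNHG8 measured 1039, 1732, 1655 and 1038 units and DANCR, an RNA that restrains differentiation of progenitor cells, 834, 843, 1159 and 614 units. Their log2 differences were -0.03 ± 0.332 (SE) and 0.01 ± 0.324 (SE), small beside the spread of their libraries.

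The hosts SNHG7, SNHG16, SNHG19 and SNHG26 lay lower in both brain metastatic libraries than in both parental ones but did not pass. SNHG26 measured 175 and 257 against 52.8 and 124 units (-1.38 ± 0.451 (SE), adjusted p = 0.0783), and SNHG19 113 and 210 against 78.7 and 45.6 units (-1.35 ± 0.437 (SE), adjusted p = 0.0762). DESeq2 on the recovered reads called these 2 (adjusted p 0.0337 and 0.0318). SNHG7 (611 and 805 against 493 and 365 units) and SNHG16 (847 and 1078 against 652 and 602 units) had log2 differences of -0.73 and -0.61. The remaining hosts, SNHG3, SNHG9, SNHG11, SNHG15, SNHG17, SNHG20 and SNHG25, had log2 differences from -0.71 to 0.57 and adjusted p from 0.356 to 0.977. Without brain metastatic A the log2 differences of SNHG1, SNHG4 and SNHG12 were 0.99, 1.01 and 1.17. Those of SNHG5, SNHG6, SNHG7 and SNHG19 were then -1.15, -1.56, -0.94 and -1.74. Without brain metastatic B they were -0.96 for SNHG19 and -1.99 for SNHG26. With 1 brain metastatic library left, the spread comes from the parental pair alone, so only these sizes are given.

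**Figure D2:**
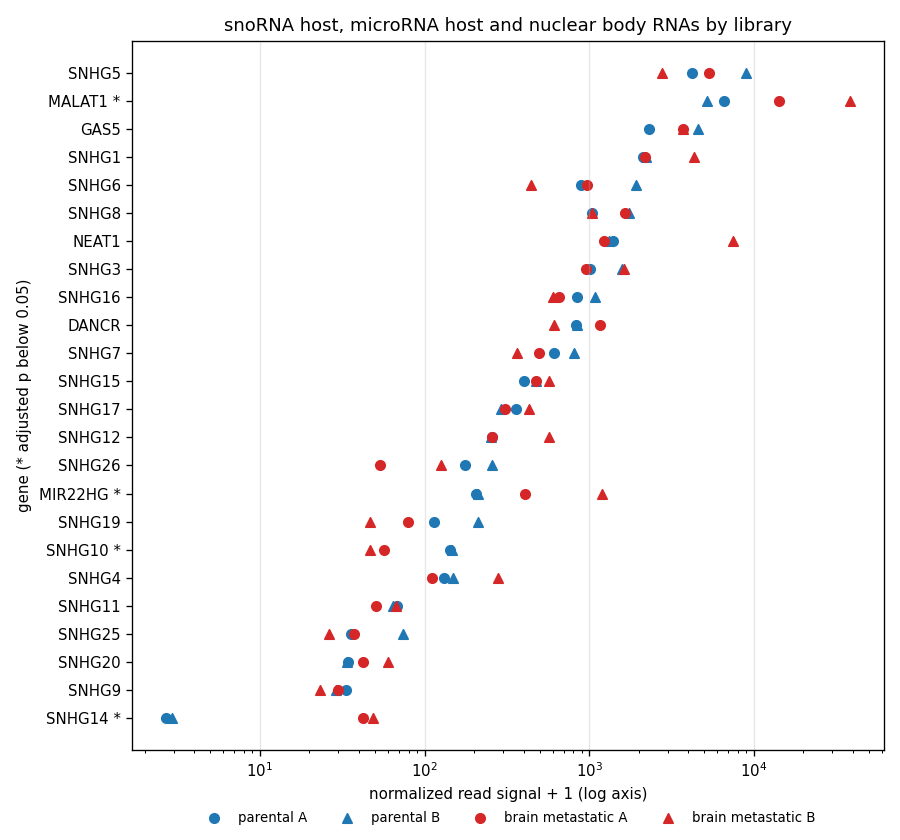
Normalized signal + 1 on a log axis in each of the 4 libraries for the 24 members other than LINC genes, ordered by parental mean; circles are libraries A, triangles libraries B, and an asterisk marks an adjusted p below 0.05. SNHG14, MALAT1 and MIR22HG lie higher and SNHG10 lower in both brain metastatic libraries, NEAT1 is high in brain metastatic B alone (7478), and most hosts overlap.

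Transcripts of genes for the machinery that makes snoRNAs and removes host transcripts were measured alongside. Of 19 snoRNP proteins tested (median log2 difference -0.04), none passed with limma-trend or edgeR, beside 14.4% and 15.4% of all genes. DESeq2 called 1, beside 20.2% of all genes. An unadjusted limma-trend p below 0.05 was found for 5, beside 4590 of all 14424 tested genes. NOLC1, a nucleolar chaperone of snoRNPs, had a log2 difference of 0.45 and FBL, the methyltransferase of box C/D snoRNPs, one of -0.51. Of 18 nonsense-mediated decay factors, SMG9 (1.34) and UPF3B (1.23) rose, MAGOHB, an exon junction protein, fell by 0.87, and 15 did not pass (median 0.19). Over all tested genes 14.4% were called, which is near the share of these factors. MAGOHB lay at the threshold (adjusted p = 0.0499) and passed it no longer with a pseudocount of 0.5 or 5, with no filter, or without parental A, parental B or brain metastatic B (adjusted p 0.0503 to 0.387). UPF3B did not pass without parental A or parental B (adjusted p = 0.0769 and 0.250), nor SMG9 without parental B (0.225). Of 32 protein-coding hosts of snoRNAs outside the ribosomal proteins, TNPO2, a nuclear import receptor, rose by 1.18 on the log2 scale and 31 did not pass (median 0.10). That is a smaller share called than the 14.4% of all tested genes. Without parental A or parental B the adjusted p of TNPO2 was 0.0664 and 0.203.

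Among LINC genes, 16 rose in the brain metastatic line. Several of them were hardly read in the parental line. LINC02303, on chromosome 14, measured 2.56 and 0.970 units in the parental and 148 and 121 units in the brain metastatic libraries (log2 difference 5.67 ± 0.537 (SE), adjusted p = 0.000771). These are 4 against 268 reads, a ratio of 72.4 (exact 95% interval 28.0 to 268, counting error only). LINC01998, on chromosome 3, had no parental read at all and 49.9 and 30.7 units in the brain metastatic libraries, or 81 reads. Against the limit of 3 reads over the parental libraries together, it was at least 29.2-fold higher in the brain metastatic line (adjusted p = 0.00294). The exact 95% lower limit of the read ratio, which also covers counting error in the 81 reads, was 23.2.

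LINC00707, on chromosome 10, reached the highest level of the LINC genes that rose most. It measured 39.2 and 46.6 units in the parental and 1453 and 492 units in the brain metastatic libraries (log2 difference 4.27 ± 0.484 (SE), adjusted p = 0.00174). Brain metastatic A was the higher of its line, and the log2 difference was 5.05 without brain metastatic B and 3.49 without brain metastatic A. LINC00705, on the same chromosome, rose from 9.39 and 12.6 to 117 and 228 units (3.79 ± 0.468 (SE), adjusted p = 0.00247). LINC01446, on chromosome 7, rose from 9.39 and 8.73 to 110 and 137 units (3.62 ± 0.422 (SE), adjusted p = 0.00196). For both, the lower brain metastatic value was far above the higher parental value.

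A pair of neighbours on chromosome 2 rose together. LINC01293 went from 30.7 and 34.9 to 230 and 292 units (log2 difference 2.95 ± 0.342 (SE), adjusted p = 0.00196), and LINC01291 from 17.9 and 28.1 to 67.2 and 147 units (2.10 ± 0.498 (SE), adjusted p = 0.0294). LINC01322 on chromosome 3 rose from 10.2 and 17.5 to 136 and 83.7 units (2.90 ± 0.473 (SE), adjusted p = 0.00727), and LINC01355 on chromosome 1 from 18.8 and 16.5 to 65.3 and 109 units (2.20 ± 0.443 (SE), adjusted p = 0.0168). In all 4 the lines did not overlap, which selection by the test makes likely.

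LINC00261, on chromosome 20, lies beside FOXA2, a transcription factor of endoderm development, and is known from endoderm differentiation. It rose from 105 and 158 to 373 and 588 units (log2 difference 1.85 ± 0.349 (SE), adjusted p = 0.0129). LINC01792 on chromosome 2 rose from 81.1 and 98.9 to 455 and 324 units (2.09 ± 0.318 (SE), adjusted p = 0.00545). LINC01117, which overlaps LINC01116, rose from 8.53 and 10.7 to 38.4 and 35.0 units (1.84 ± 0.488 (SE), adjusted p = 0.0423), but with DESeq2 its adjusted p was 0.0905. The other 4 that rose were LINC00294, LINC01139, LINC00240 and LINC00452, with log2 differences of 1.11 to 1.77; LINC00240, LINC00452 and LINC01139 are named here after their values were seen. LINC00294, at 449 and 383 against 913 and 875 units, was the one that was also among the 8 most abundant LINC genes.

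**Figure D3:**
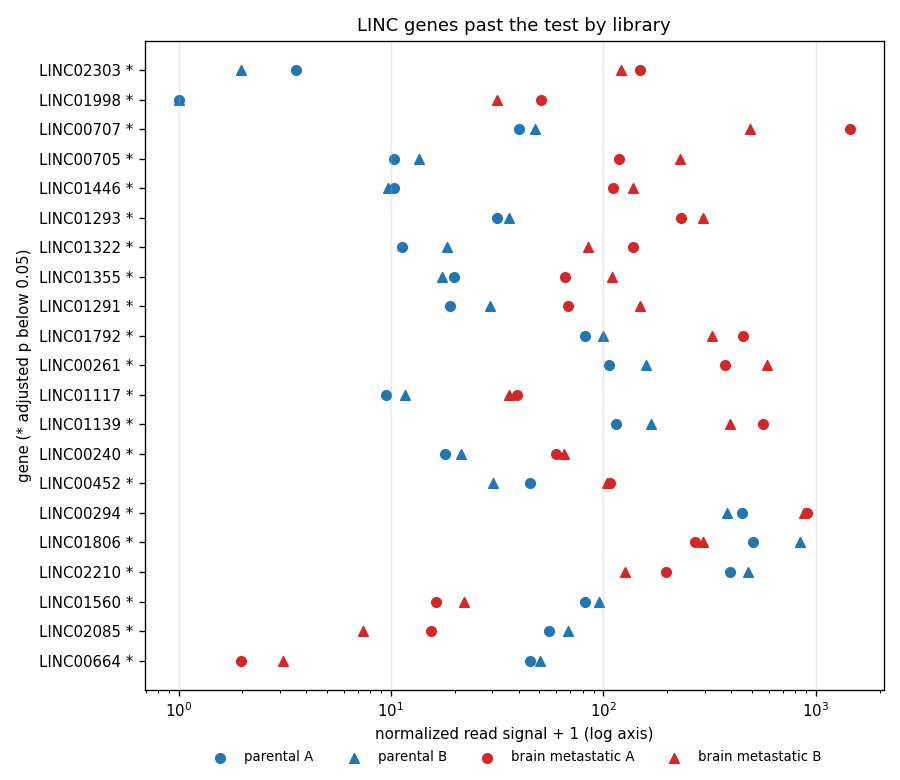
Normalized signal + 1 on a log axis in each of the 4 libraries for the 21 LINC genes with an adjusted p below 0.05, ordered from the largest increase to the largest decrease; circles are libraries A and triangles libraries B. The parental points (blue) and brain metastatic points (red) are separate in every row, with 16 genes higher and 5 lower in the brain metastatic line. Selection by the test makes such separation likely, and 61.3% of all tested genes were separate too.

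In the other direction, 5 LINC genes fell. LINC00664, on chromosome 19, measured 44.4 and 49.5 units in the parental and 0.960 and 2.12 units in the brain metastatic libraries (log2 difference -4.27 ± 0.594 (SE), adjusted p = 0.00379). These are 103 against 3 reads, a parental to brain metastatic ratio of 31.8 (exact 95% interval 10.6 to 156, counting error only). LINC02085 on chromosome 3 fell from 54.6 and 66.9 to 14.4 and 6.36 units (-2.53 ± 0.527 (SE), adjusted p = 0.0188). LINC01560 on chromosome X fell from 81.1 and 94.1 to 15.4 and 21.2 units (-2.21 ± 0.417 (SE), adjusted p = 0.0129).

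The other 2 started from higher levels. LINC02210 on chromosome 17, typed as a transcribed unitary pseudogene, fell from 393 and 477 to 197 and 125 units (-1.46 ± 0.321 (SE), adjusted p = 0.0227). LINC01806 on chromosome 2 fell from 506 and 844 to 270 and 292 units (-1.21 ± 0.311 (SE), adjusted p = 0.0374). In all 5 the lines were separate, and none of the 5 passed when a parental library was left out (adjusted p 0.0709 to 0.416).

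The most abundant LINC genes mostly did not pass. LINC01116 was the highest by CPM, with 800 and 906 units in the parental and 1897 and 1142 units in the brain metastatic libraries (log2 difference 0.79, adjusted p = 0.108). Its log2 difference was 1.15 without brain metastatic B and 0.42 without brain metastatic A. LINC01578, also called CHASERR, lies upstream of the chromatin remodeller gene CHD2, and measured 979, 1489, 1031 and 837 units (-0.38, adjusted p = 0.390). LINC01184, LINC00973, LINC00667, LINC00888 and LINC01278 had log2 differences from -0.30 to 0.26 with overlapping libraries, adjusted p 0.475 to 0.951. LINC00467, which encodes a microprotein of the mitochondrial ATP synthase, measured 460, 781, 475 and 361 units (-0.53, adjusted p = 0.297). Of 28 LINC genes at 10 CPM or more in the higher line, 5 rose and 2 fell (25.0% called), beside 15.2% of all genes at that level. Of 90 below 10 CPM, 11 rose and 3 fell (15.6%), beside 12.7% of all such genes.

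The tested genes nearest to the called members were read from GENCODE v29 positions. Some overlap the member and others lie far off, up to 2.03e+06 bases for PDCD10 and LINC01322. The nearest tested row had the same sign for 19 of the 25 called members (76.0%), beside 69.9% of all called genes. It was itself called in the same direction for 9 of 25 (36%), beside 20.1%, and in the opposite direction for none, beside 2.94%. The 9 include LINC01291 and LINC01293, which are each other's neighbour. FOXA2, next to LINC00261, rose from 222 and 225 to 1632 and 1507 units (log2 difference 2.81, adjusted p = 0.000608). MANCR, a long noncoding RNA of mitotic cells that overlaps LINC00705, rose from 475 and 810 to 2518 and 2215 units (1.93, adjusted p = 0.00573), and reads of the overlap cannot be told apart.

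LINP1, an RNA of nonhomologous end joining and the neighbour of LINC00707, rose by 1.66 on the log2 scale, and AOX1, an aldehyde oxidase next to LINC01792, by 1.29. RYR2, a calcium release channel, was the nearest tested row to LINC01139 but lies 642554 bases away. It rose by 2.47 from 4.27 and 5.82 to 22.1 and 46.6 units. ZNF429, a zinc finger gene that overlaps LINC00664, fell by 1.46 together with it. In contrast, TANK beside LINC01806 (0.51) and HNRNPR beside LINC01355 (-0.23) had the opposite sign to the member and did not pass. Of the 41 tested members that overlap another named row 8 were called (19.5%), and of the 98 that overlap none 17 were (17.3%), beside 14.4% of all tested genes.

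Libraries of the same line differed more among these genes than among all genes. Brain metastatic B was at least 2-fold above brain metastatic A for 22 of the 142 tested members (15.5%, beside 7.54% of all tested genes) and at least 2-fold below it for 8 (5.63%, beside 3.4%). Parental B was at least 2-fold above parental A for 10 (7.04%, beside 2.09%) and below for 2 (1.41%, beside 0.7%). MALAT1, NEAT1, MIR22HG, SNHG12, SNHG4, SNHG26 and LINC00472 were among the 22, and SNHG6, LINC00707 and LINC02085 among the 8. The median difference of the tested members from the parental mean was -0.12 in brain metastatic A and 0.11 in brain metastatic B. The members were also less abundant, with a median of 2.81 CPM in the parental line beside 23.2 CPM over all tested genes, and the part of that in these counts was not tested.

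**Figure D4:**
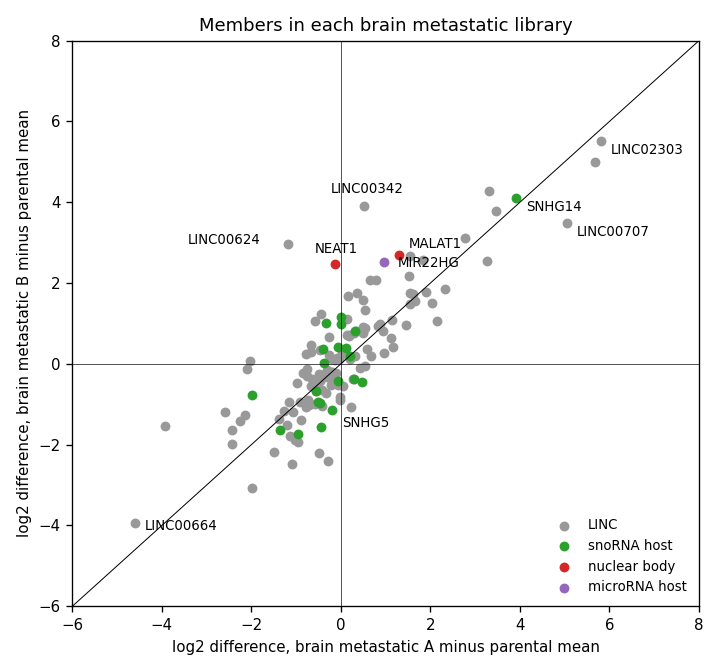
Log2 difference from the parental mean in brain metastatic library A (horizontal) and library B (vertical) for the 142 tested members, coloured by class; the diagonal marks equal values. SNHG14, LINC02303 and LINC00664 lie near the diagonal, whereas NEAT1 (-0.13 and 2.46), MIR22HG (0.96 and 2.51) and MALAT1 (1.29 and 2.70) lie above it and LINC00707 (5.05 and 3.49) below it.

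Together the members took 0.152% and 0.197% of reads in the parental libraries and 0.207% and 0.306% in the brain metastatic libraries (0.175% ± 0.0313 and 0.256% ± 0.0706, mean ± SD, n = 2 each, with no test). The difference lay mainly in MALAT1. NEAT1 took 0.00532% and 0.00494% of reads in the parental libraries and 0.00458% and 0.0273% in the brain metastatic libraries, so it was higher only in brain metastatic B. Without MALAT1 and NEAT1 the shares were 0.122%, 0.172%, 0.149% and 0.140%, and the lines overlapped. MALAT1 alone made up 16.5% and 9.90% of the members' reads in the parental libraries and 25.7% and 45.5% in the brain metastatic libraries. The snoRNA hosts made up 39.0%, 48.8%, 33.5% and 21.2% in the same order, and all LINC genes 40.6%, 38.4%, 37.9% and 22.9%. Since these are shares of a sum, a rise of MALAT1 lowers the others. As shares of all reads the hosts took 0.0594%, 0.0959%, 0.0692% and 0.0649% and the LINC genes 0.0618%, 0.0756%, 0.0783% and 0.0703%, with overlap between the lines in both.

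**Figure D5:**
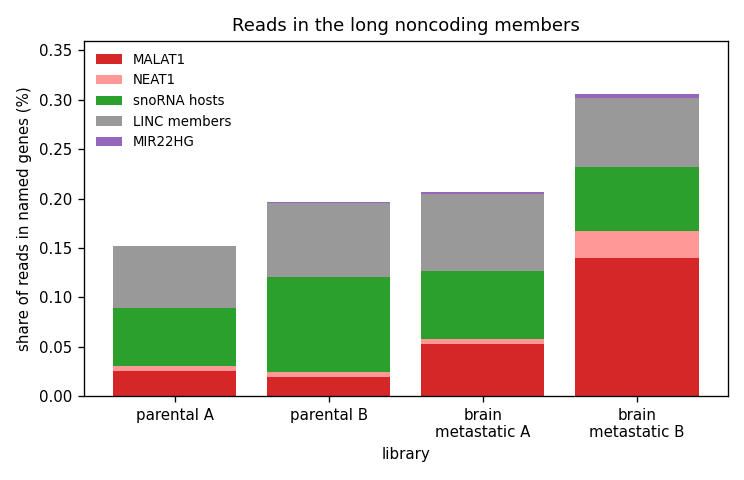
Share of reads in named genes (percent) taken by MALAT1, NEAT1, the 21 snoRNA hosts, the 150 LINC members and MIR22HG, stacked for each of the 4 libraries. The full bar rises from 0.152% in parental A to 0.306% in brain metastatic B, and the MALAT1 segment from 0.0251% to 0.139% between the same libraries.

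Further long noncoding RNAs with names of their own were read from the same fit. Of 30 tested, 6 rose, 3 fell and 21 did not pass, beside 8.61% higher and 5.8% lower of all tested genes, and their median log2 difference was -0.03. MIR503HG, the host of miR-503, rose from 33.3 and 17.5 to 368 and 811 units (4.44, adjusted p = 0.00141). MIR99AHG, the host of miR-99a, let-7c and miR-125b, rose from 4.27 and 8.73 to 56.7 and 53.0 units (2.96, adjusted p = 0.0105), and FTX, a noncoding gene of the X-inactivation centre, from 8.53 and 7.76 to 37.5 and 102 units (2.78, adjusted p = 0.0186). UCA1, first described in bladder cancer, fell from 194 and 201 to 9.60 and 15.9 units (-3.89, adjusted p = 0.00133). CRNDE, named for its expression in colorectal neoplasia, fell by 2.26 and DLEU2, the host of the miR-15a and miR-16 cluster, by 1.41 on the log2 scale. MIR99AHG and DLEU2 did not pass without parental A (adjusted p = 0.103 and 0.0993), DLEU2 not without parental B either (0.251), CRNDE not without parental B (0.0604), and FTX failed without either (0.104 and 0.132).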

How the data were processed

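RNA-seq was made from 2 libraries of MDAMB231 and 2 of MDAMB231Br cells, with RNA isolated by a mirVana kit, per the labels' protocols. Alignment tool, counter and build are HISAT2, featureCounts and GRCh37 per the submitters' processing notes, which also name DESeq2, all without version. Library kit, annotation and strand setting are not given in the labels, so overlapping genes cannot be told apart.

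The deposited table gives a signal per gene, which the values show to be read counts divided by a size factor. Each column held whole multiples of 1 step, and dividing by it gave whole reads for 100% of values (tolerance 0.01 reads). Columns name only the line, so A and B follow column order. The 67 unnamed rows of 15346 (0.0310% to 0.0369% of reads) were left out, and 20 rows had names turned into dates.

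Here, genes were kept by edgeR's filterByExpr (minimum count 10, minimum total 15) and tested with limma-trend on log2(signal + 1) of the deposited values, which understates differences of low genes, with Benjamini-Hochberg adjustment over all 14424 genes at 0.05. Alternatives were edgeR, DESeq2 and limma-voom on recovered reads, other pseudocounts, filters and scalings, and leaving out each library. RPKM used the longest GENCODE v29 transcript, whose build differs from the authors', so its coordinates are not given. Read ratios carry exact 95% intervals from the binomial distribution. Shares of reads have no test. Software was Python 3.11.15 and R 4.3.3 with DESeq2 1.42.0, edgeR 4.0.16 and limma 3.58.1.

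The members, lists and tests were chosen with earlier results of these data known. Named are all SNHG members and the 5 given by name, up to 12 passing LINC genes in each direction by size of the difference, the 8 most abundant LINC genes, LINC genes of a microprotein or microRNA host list, and up to 3 passing genes in each direction of each other list or its 2 most abundant where none passed. Most neighbours were named where the nearest row of a called member was itself called or overlapped it, and a few others as contrast. Not described above were AL021807.1 near LINC00240 (called higher, log2 difference 2.62), TCP11L1 overlapping LINC00294 (0.57, not passing) and AC106712.1 overlapping LINC02085 (-1.01, not passing).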

Additional observations from a re-analysis of the deposited data

How the results depend on the processing

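No paired analysis was possible because the columns carry no replicate numbers. The 25 calls kept their sign in every fit. Where 1 library was left out this was fixed in advance, because their libraries do not overlap between the lines. With every other test, pseudocount, filter and scaling 23 passed. LINC01117 failed with DESeq2 and MIR22HG without a filter on low values (adjusted p = 0.0561). Members called numbered 25 to 31 in these 9 fits, beside 1869 to 2910 calls over all genes of each fit. Members called lower numbered 10 with DESeq2 and 10 with scaling by library total, against 6. Lower calls over all genes moved likewise, to 1287 and 991 against 837. Leaving out a library gave 7 to 63 members called, 7 to 35 higher and 0 to 28 lower, beside 421 to 5257 calls over all tested genes. With 1 library left in a line, the fit assumes that it varies like the other line, and its spread then comes from the other pair alone. The mean brain metastatic share of reads was 0.144% without MALAT1 and NEAT1. Among the named genes the sign changed only for some that did not pass, and leaving out 1 library can change it only where the lines overlap. DANCR was -0.014 with limma-voom, -0.029 with library totals and -0.018 with TMM. Leaving out each library in turn gave log2 differences of -0.45 to 0.47 for DANCR, -0.30 to 0.70 for GAS5, -0.41 to 0.37 for SNHG3, -0.40 to 0.33 for SNHG8, -0.33 to 1.01 for SNHG4, -0.0017 to 0.99 for SNHG1, -0.13 to 2.46 for NEAT1, -0.070 to 0.42 for SNHG17, -0.38 to 0.011 for SNHG11, -0.55 to 0.044 for LINC01184 and -0.61 to 0.51 for LINC00973. The cause was not tested. LINC genes with very few reads could not be tested at this depth.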

Other observations

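The 78 ribosomal protein genes, chosen as a set after values had been seen, were compared with the snoRNA hosts because both kinds of gene can begin at a pyrimidine run. Of the 78, 17 fell and 61 did not pass, with a median log2 difference of -0.93 (21.8% lower, beside 5.8% of all tested genes). Parental B was above parental A for 77 of 78 and brain metastatic B below brain metastatic A for 75 of 78. The median differences between libraries were 0.65 (parental B minus A) and -0.75 (brain metastatic B minus A). SNHG6, whose start was not among those read, differed by 1.11 and -1.13 in the same pairs, against a median of 0.24 and -0.0052 over all 21 hosts. The hosts with a pyrimidine start were split. SNHG5 differed by 1.09 and -0.96, and SNHG19 went in the same directions. SNHG4 differed by 0.18 and 1.35 and SNHG12 by -0.011 and 1.16. Parental B was above parental A for 16 hosts, and brain metastatic B was below brain metastatic A for 11.

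Some LINC genes, named after their values were seen, were high in 1 library. LINC00624 measured 17.9, 19.4 and 7.68 units in parental A, parental B and brain metastatic A and 153 units in brain metastatic B, and LINC00342 measured 17.1, 13.6, 22.1 and 243 units. Neither passed the test (adjusted p = 0.618 and 0.151). Among the 32 members with too few reads for a test, 9 had no read in any library. LINC00894 had the most, with 1, 1, 8 and 37 reads in the same order, a ratio of brain metastatic to parental of 24.3 (exact 95% interval 6.35 to 207, counting error only).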
